A study of Homo sapiens with 8 samples.

Results

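The cytoskeleton and matrix mRNAs examined here come from 10 genes of GENCODE 44, chosen by name. They are ACTB and ACTG1 (beta- and gamma-actin, the cytoplasmic actins), FLNA (filamin A, which crosslinks actin filaments), MYH9 (the heavy chain of non-muscle myosin IIA), TLN1 (talin 1, which couples integrins to actin), VIM (vimentin, the intermediate filament protein of mesenchymal cells), FN1 (fibronectin), COL1A1 and COL1A2 (the chains of type I collagen) and SPARC (a matrix glycoprotein of bone, also called osteonectin). A crosslink site was counted for a gene when it lay within the gene on the same strand, and its cDNAs were summed. Of the 10 genes, 9 held sites in both dyskerin libraries and 1, COL1A2, held none in any library. In all, 14406 genes had at least 1 cDNA, 10881 of them protein-coding.

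The libraries were made by iCLIP, in which ultraviolet light ties a protein to the RNA it touches and the end of a cDNA marks the crosslinked nucleotide. The cells were U2OS, an established human osteosarcoma line, and only their nuclear fraction was used, without any treatment or genetic change. Immunoprecipitation was with an antibody against dyskerin (2 libraries), an antibody against GAR1 (2 libraries) or mouse IgG, with 2 IgG libraries labelled for dyskerin and 2 labelled for GAR1. The paper lists the GAR1 antibody as made in rabbit, so mouse IgG did not match it in species. The study's legends call the replicates independent experiments, while the labels only number them and neither names separate cultures, so p-values measure the spread between these libraries.

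Dyskerin is the pseudouridine synthase of the H/ACA ribonucleoprotein, which turns uridine into pseudouridine in ribosomal and small nuclear RNA at places chosen by a guide RNA, and GAR1 is another core protein of that complex. The 10 genes are transcribed abundantly in mesenchymal and bone-forming cells. Actin, filamin, non-muscle myosin and talin form and anchor the contractile cortex and stress fibres, vimentin forms a network of its own, and fibronectin, type I collagen and SPARC are secreted into the matrix.

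Significant sites held 1693951 and 1875459 cDNAs with dyskerin and 585454 and 1976518 with GAR1, against 146514 and 8183 in the IgG libraries for dyskerin and 295255 and 10701 in those for GAR1. These totals are what passed the site call in each library, not sequencing depth. Levels are given as CPM, which are cDNAs per 1000000 peak cDNAs of the same library. A count of 0 allows up to 3 cDNAs, which is 1.77 and 1.60 CPM in the dyskerin libraries but 367 CPM in the second IgG library for dyskerin and 280.3 CPM in the second one for GAR1, so a 0 in those 2 libraries says little. Intervals cover counting error only. Of 9 osteoblast and osteosarcoma markers, 3 held cDNAs in both dyskerin libraries (RUNX2, COL1A1 and SPARC), while SP7, ALPL, SPP1, BGLAP, IBSP and COL1A2 were at 0 in both. None of 21 markers of other cell types held cDNAs in both.

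The 10 mRNAs together took 6711 and 10244 cDNAs in the dyskerin libraries, which is 0.396% (95% Wilson interval 0.387 to 0.406) and 0.546% (0.536 to 0.557) of their peak cDNAs. The GAR1 libraries held 12 and 754 such cDNAs (0.00205% and 0.0381%). The IgG libraries for dyskerin held 343 and 7 (0.234% and 0.0855%), and those for GAR1 held 16 and 0 (0.00542% and 0%). The share was thus highest in both dyskerin libraries, and the IgG library with the most cDNAs came next, above both GAR1 libraries. Averaged over the 4 antibody libraries the share was 0.246%, against 0.0813% over the 4 IgG libraries, a difference of 0.164 percentage points that did not pass an exact two-sided permutation test (p = 0.314, where 70 arrangements allow 0.0286 at the smallest). Taken as a share of protein-coding cDNAs only, the mRNAs made up 0.597% and 0.844% in dyskerin, 0.0778% and 1.07% in GAR1, 0.419% and 0.580% in the IgG for dyskerin and 0.193% and 0% in the IgG for GAR1. On that scale the second GAR1 library was above both dyskerin libraries (exact permutation p = 0.200 for antibody against IgG, unadjusted; both p-values are 0.314 after Benjamini-Hochberg adjustment over these 2 measures).

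Among the cytoskeletal mRNAs, MYH9 carried the most dyskerin cDNAs. It had 2151 and 2759 cDNAs (1269.8 and 1471 CPM) with dyskerin, 0 and 105 (0 and 53.1 CPM) with GAR1, 168 and 4 (1147 and 489 CPM) in the IgG for dyskerin, and none in the IgG for GAR1. MYH9 stood 50th and 33rd among the 8700 and 8533 protein-coding genes with cDNAs in the dyskerin libraries. Its level in the larger IgG library for dyskerin was therefore close to that in the dyskerin libraries, although below both.

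FLNA had 1389 and 1682 cDNAs (820 and 897 CPM) in dyskerin, 4 and 114 (6.83 and 57.7 CPM) in GAR1, 13 and 0 (88.7 and 0 CPM) in the IgG for dyskerin and none in the IgG for GAR1. Both dyskerin libraries were far above all others. FLNA was the only one of the 9 detected mRNAs with both GAR1 libraries above both IgG libraries for GAR1, which held for 10.6% of all genes tested. Since FLNA had no cDNA in those IgG libraries, this asks only for a cDNA in each GAR1 library. The 0 in the second of them allows up to 280.3 CPM, above both GAR1 values. ACTB had 1019 and 1566 cDNAs (602 and 835 CPM) in dyskerin, 8 and 200 (13.7 and 101.2 CPM) in GAR1, 62 and 3 (423 and 367 CPM) in the IgG for dyskerin, and 16 and 0 (54.2 and 0 CPM) in the IgG for GAR1. ACTB was the only one of the 10 with cDNAs in an IgG library for GAR1, and that library lay above the lower GAR1 library. ACTG1 had 302 and 534 cDNAs (178 and 285 CPM) in dyskerin, 0 and 10 (0 and 5.06 CPM) in GAR1 and 11 and 0 (75.1 and 0 CPM) in the IgG for dyskerin. It was below ACTB in every library with signal, although the coding sequences of the actins are 91.2% identical and reads can be shared between them.

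TLN1 had 219 and 346 cDNAs (129 and 184 CPM) in dyskerin, 0 and 17 (0 and 8.60 CPM) in GAR1 and 28 and 0 (191 and 0 CPM) in the IgG for dyskerin. It was the only mRNA of the 9 whose IgG level exceeded both dyskerin levels. VIM had 475 and 750 cDNAs (280.4 and 399.9 CPM) in dyskerin, 0 and 28 (0 and 14.2 CPM) in GAR1 and 26 and 0 (177 and 0 CPM) in the IgG for dyskerin, so both dyskerin libraries were above the rest.

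Among the matrix mRNAs, COL1A1 had 977 and 1741 cDNAs (577 and 928 CPM) in dyskerin, 0 and 245 (0 and 124 CPM) in GAR1 and 26 and 0 (177 and 0 CPM) in the IgG for dyskerin. It was the most abundant of the 10 in the second GAR1 library, where it stood 35th of 2881 protein-coding genes, and had no cDNA in the first. FN1 had 107 and 738 cDNAs (63.2 and 394 CPM) in dyskerin, 0 and 30 (0 and 15.2 CPM) in GAR1 and 3 and 0 (20.5 and 0 CPM) in the IgG for dyskerin. SPARC had 72 and 128 cDNAs (42.5 and 68.2 CPM) in dyskerin, 0 and 5 (0 and 2.53 CPM) in GAR1 and 6 and 0 (41.0 and 0 CPM) in the IgG for dyskerin, so that its lower dyskerin library and the larger IgG library were nearly equal. COL1A2 was at 0 in all 8 libraries, with an upper limit of 1.77 and 1.60 CPM in the dyskerin libraries, although both collagen chains are needed for the usual type I collagen.

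**Figure D1:**
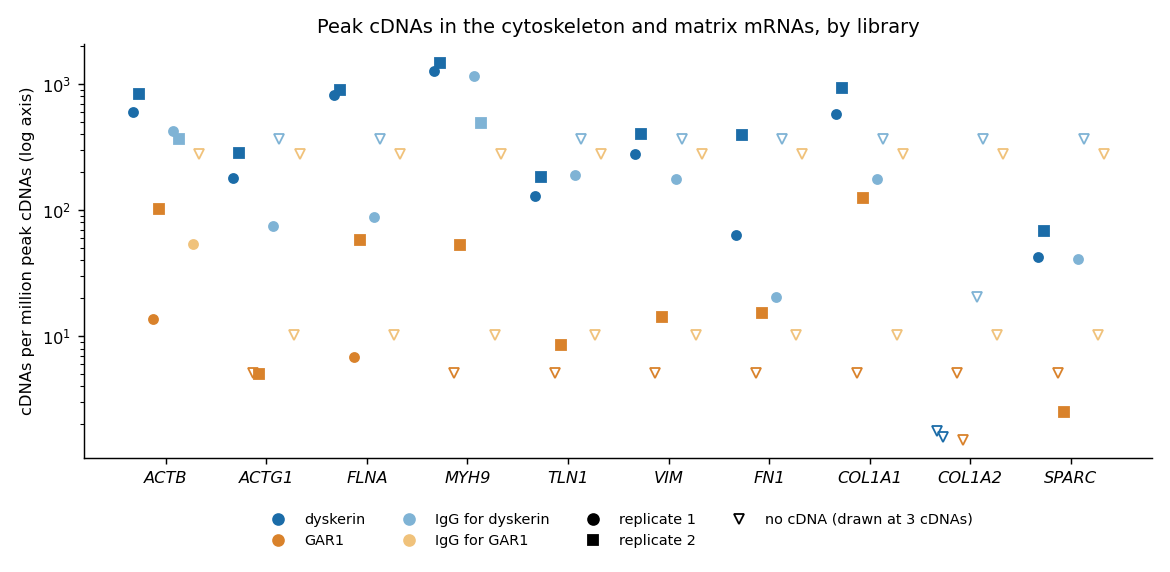
CPM of peak cDNAs (vertical log axis) for each of the 10 mRNAs in the 8 libraries, with circles for replicate 1 and squares for replicate 2, and open triangles where a library had no cDNA, drawn at the level of 3 cDNAs in that library. The dyskerin points run from 42.5 CPM for SPARC to 1471 CPM for MYH9, and the triangles of the 2 smallest IgG libraries stand at 367 and 280.3 CPM.

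The order changed when the CPM of each gene, intronic cDNAs included, were divided by the length of its spliced mRNA. These levels are therefore above those of the exons alone. In ACTB, 139 and 324 of the 1019 and 1566 dyskerin cDNAs were intronic. ACTB had the highest dyskerin level, 332 and 461 CPM per kb, followed by MYH9 (170 and 197), VIM (130 and 186), COL1A1 (97.5 and 157), ACTG1 (92.9 and 148), FLNA (96.4 and 105), FN1 (7.53 and 46.9), TLN1 (14.99 and 21.4) and SPARC (12.3 and 19.8). ACTB stood clear of the others in both libraries. From MYH9 down to FLNA each mRNA overlapped its neighbour in this order, and so did FN1, TLN1 and SPARC, whereas FLNA lay above FN1 in both libraries.

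The dyskerin replicates differed moderately for most of these mRNAs, and always in the same direction. The second library was above the first in CPM for all 9, by 1.09 times for FLNA, 1.16 for MYH9 and between 1.39 and 1.61 for ACTB, ACTG1, TLN1, VIM, COL1A1 and SPARC. FN1 stood apart with a ratio of 6.23. Of 3365 other protein-coding genes with at least 100 dyskerin cDNAs over both libraries, 5 (0.149%) had a ratio as high. The middle 90% ran between 0.462 and 2.06 with a median of 1.06, and all 9 mRNAs were above that median. FN1 was compared in this way after its values were seen. The values for FN1 in dyskerin therefore rest mostly on 1 library.

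The question of whether these mRNAs were contacted more by dyskerin or GAR1 than by IgG was put to a fit over the 6425 genes that reached 10 counts in 2 or more libraries (edgeR quasi-likelihood test with TMM scaling, Benjamini-Hochberg adjustment over all genes). None of the 9 testable mRNAs passed in dyskerin against its IgG. The log2 fold changes were all positive and ran from 0.27 ± 2.36 (SE) for TLN1 to 3.77 ± 2.84 for FLNA, with adjusted p-values from 0.430 to 0.984. No gene of the table passed, 0% of 6425 in either direction, although before adjustment 1450 were higher and 7 lower at p under 0.05, and DESeq2 also called 0 genes. Both dyskerin libraries exceeded both IgG libraries in CPM for 8 of the 9 (all but TLN1), but so they did for 70.2% of all genes tested. The median log2 fold change of the 9 was 1.503, against 1.99 over all genes tested, or 0.37 when genes without cDNAs in a group were set to their bound of 3 counts over the group.

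In GAR1 against its IgG none of the 9 passed by edgeR, nor did any gene (0% higher and 0% lower of 6425). Before adjustment 936 were higher and 9 lower at p under 0.05. DESeq2 called 108 genes higher and 20 lower after adjustment, none of them among the 9. ACTB was the only one with cDNAs on both sides and had a log2 fold change of 5.05 ± 2.92 (SE, adjusted p = 0.360). This value depended on the scaling and was 0.44 with total peak cDNAs and 0.23 by DESeq2, with adjusted p-values of 1. The other 8 had no cDNA in either IgG library for GAR1, so only bounds can be given. Per peak cDNA, the bound for GAR1 over IgG was 9.75-fold for COL1A1, 4.70-fold for FLNA and 4.18-fold for MYH9, set against 3 cDNAs over the IgG group. For VIM and FN1 the same bound was 1.11-fold and 1.19-fold, and for ACTG1, TLN1 and SPARC the depth of the IgG libraries allowed no statement. On the TMM scale, which differs because the GAR1 libraries have small factors, the bounds ran from 2.25-fold for SPARC to 110-fold for COL1A1. FLNA alone had both GAR1 libraries above both IgG libraries in CPM, where 10.6% of all genes did. These bounds for GAR1 rest on its second library, since the first held only ACTB and FLNA. They pool the libraries of a group and count only cDNAs at called sites, so they are not lower limits on enrichment. A 0 in the second IgG library alone allows 280.3 CPM. COL1A1, FLNA and MYH9 had 124, 57.7 and 53.1 CPM in the second GAR1 library.

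Dyskerin and GAR1 were then set against each other. The outcome turned on the scaling. With TMM, none of the 9 mRNAs passed, with log2 fold changes between -0.71 ± 2.43 (COL1A1) and 2.23 ± 2.46 (ACTG1) and adjusted p-values from 0.446 to 0.865, while 47.6% of all genes were called higher and 4.39% lower in dyskerin. The higher calls over all genes were not stable: 0 were higher and 472 lower with no filter on low counts, 0 and 293 without GAR1 replicate 1, 1 and 59 without GAR1 replicate 2, and 0 and 18 with the replicate number as a block. Nearly all of those higher calls, 3049 of 3057, were genes with no GAR1 cDNA at all. Each of the 9 mRNAs had GAR1 cDNAs, and among the 2860 genes of that kind 8 (0.28%) were called higher, so the absence of calls among the 9 is the usual outcome for genes with GAR1 signal.

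When each library was scaled to its total of peak cDNAs, all 9 passed and were higher in dyskerin. The log2 fold changes were then 3.58 (COL1A1) to 6.11 (ACTG1), with adjusted p-values of at most 0.0399 by edgeR. This was also true of 90.4% of all genes, so it does not set the 9 apart. DESeq2 with its own size factors called 8 of the 9 higher (COL1A1 was the exception, adjusted p = 0.0944) and 52.5% of all genes. With at least 50 counts, 7 of the 9 were called higher, as were 3124 of 3585 genes. With sites of at least 3 cDNAs all 9 were called higher, as were 2401 of 2911 genes, but ACTG1 and SPARC then had no GAR1 cDNA left. The median of the 9 was 0.89 with TMM and 4.84 with total scaling. Over all genes it was 5.56 and 6.56, but 3572 of the 6425 had no cDNA in one of the groups, so these medians lie among values set by the prior count and cannot be compared with those of the 9. Both dyskerin libraries were above both GAR1 libraries in CPM for all 9, and for 91.3% of all genes. Whether the dyskerin effect over IgG differed from that of GAR1 was tested as an interaction. By edgeR no mRNA of the 9 and no gene at all passed (0% in either direction). Before adjustment 166 were higher and 198 lower at p under 0.05. DESeq2 called 15 genes higher and 64 lower after adjustment, none of them among the 9 mRNAs.

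**Figure D2:**
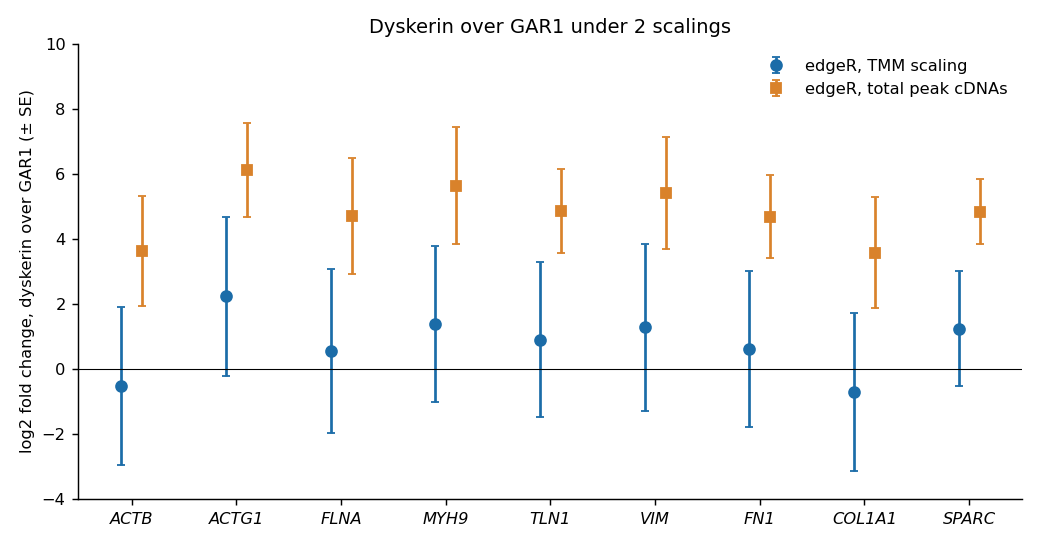
Log2 fold change of dyskerin over GAR1 with its standard error (vertical axis) for the 9 detected mRNAs, with circles for edgeR with TMM scaling and squares for edgeR with scaling to total peak cDNAs. The circles lie between -0.71 and 2.23 and the squares between 3.58 and 6.11.

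A set of 93 other genes of the cytoskeleton and matrix was examined on the TMM scale. Of these, 86 held cDNAs and 66 were tested. None passed against IgG with either antibody, and 28 were higher and 0 lower in dyskerin than in GAR1 (42.4% of those tested, where 47.6% of all genes passed). All 28 had no GAR1 cDNA, and none of the other 38 passed. By group, 13 of 29 tested genes of the actin filament, 5 of 12 of microtubules and intermediate filaments and 10 of 25 of the matrix were higher in dyskerin. SPTAN1 (a spectrin of the cell cortex) had 403 and 533 CPM in dyskerin and none in GAR1 (edgeR adjusted p = 0.0434). ACTN4 (an alpha-actinin) had 277 and 312 CPM in dyskerin and none in GAR1 (edgeR adjusted p = 0.0433). SPTAN1 and ACTN4 belong to the 28, and every tested gene of the set without GAR1 cDNAs was called. Their calls therefore say no more than that GAR1 had no cDNA there. PLEC (plectin, a linker of filament systems) had the highest mean over the dyskerin libraries in the set (3259 CPM, against 3204 for AHNAK, which was higher in the first library), with 4087 and 2430 CPM in dyskerin and 0 and 179 CPM in GAR1, against 3215 and 0 CPM in the IgG for dyskerin. PLEC in the larger IgG library thus lay between the dyskerin libraries. The 5 protein-coding genes whose levels over the 8 libraries were nearest to the mean of the 10 mRNAs (Euclidean distance on log2(CPM + 1)) were PCBP2, DIDO1, HGS, URI1 and IGF1R, at distances of 2.08 to 2.19. They had between 107 and 241 CPM in dyskerin, 0 to 15.2 in GAR1 and 54.6 to 137 CPM in the larger IgG library for dyskerin.

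Along the mRNAs, the crosslink sites lay mostly in the coding sequence. By the canonical transcript of each gene, 89.8% (95% Wilson interval 89.0 to 90.5) and 86.7% (86.0 to 87.3) of the cDNAs in the dyskerin libraries were in the CDS, a mean of 88.2% ± 2.19 (SD, n = 2). The 5′UTR held 2.49% ± 0.72, the 3′UTR 2.29% ± 0.62 and introns 6.94% ± 0.88. The second GAR1 library had 85.5% (82.9 to 87.9) in the CDS and 6.23% (4.72 to 8.19) in the 3′UTR, and the larger IgG library for dyskerin had 97.7% (95.5 to 98.8) in the CDS and 0% in the 3′UTR. The first GAR1 library, with 12 cDNAs, and the other IgG libraries, with 7, 16 and 0, were too small for a test of these shares between antibody and IgG.

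The densities allow for the lengths of the regions, 1751 nt of 5′UTR, 41952 nt of CDS, 9590 nt of 3′UTR and 285271 nt of intron over the 10 genes. In the dyskerin libraries the CDS held 144 and 212 cDNAs per kb, the 5′UTR 76.0 and 176, the 3′UTR 12.9 and 29.1, and introns 1.49 and 2.71. The 3′UTR was thus far below the CDS in both, and introns lower still. In the second GAR1 library the CDS held 15.4 cDNAs per kb, the 5′UTR 14.3, the 3′UTR 4.90 and introns 0.0736. The 5′UTR signal came largely from ACTB, which gave 75.2% and 59.4% of it in dyskerin and 96.0% in the second GAR1 library. When any protein-coding transcript could assign a site, the share of the CDS in the summed density of the 4 regions was 47.7%, against 55.9% by the canonical transcript. On that count the second dyskerin library had 214 cDNAs per kb in the CDS and 256.4 in the 5′UTR, and the first had 144 and 111. These values and the 47.7% still divide by the lengths of the canonical transcripts. They are therefore too high where other transcripts extend a region. Whether the order of CDS and 5′UTR turns cannot be read from them.

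**Figure D3:**
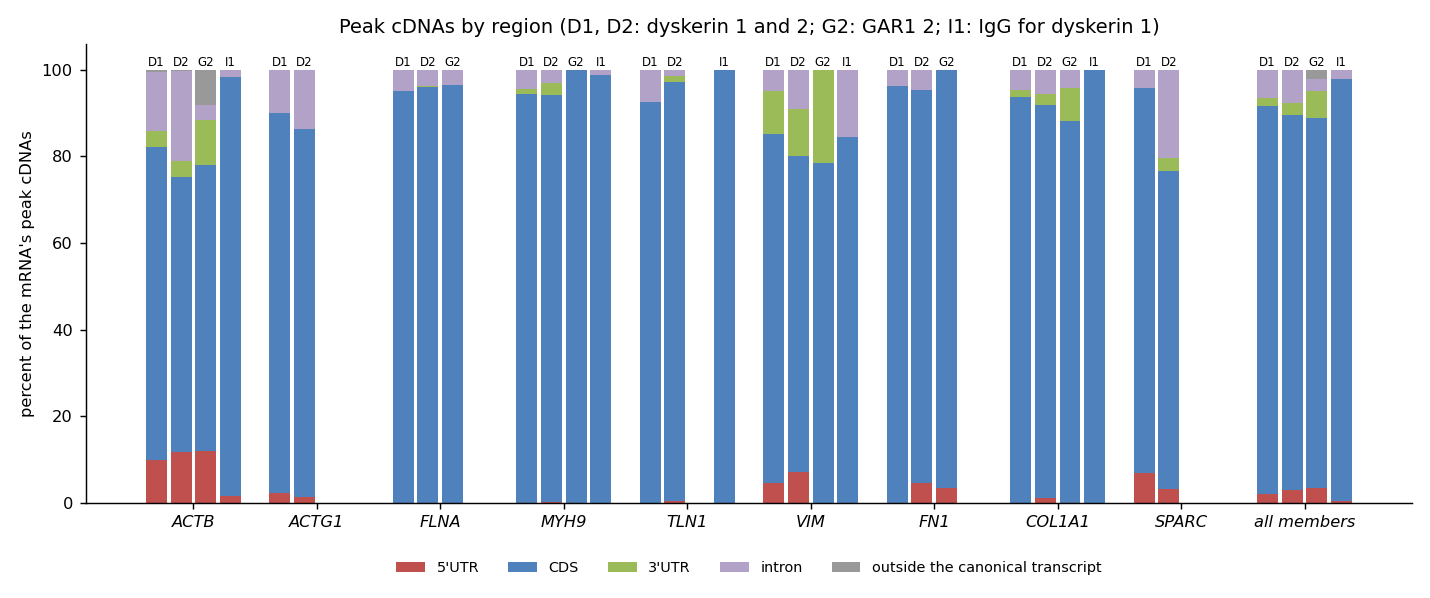
Percent of each mRNA's peak cDNAs (vertical axis) in the 5′UTR, CDS, 3′UTR, introns or outside the canonical transcript, for the dyskerin libraries (D1, D2), the second GAR1 library (G2) and the first IgG library for dyskerin (I1), each drawn only where it had at least 20 cDNAs in that mRNA. The CDS is the largest part of every bar and lies between 63.6% (ACTB in D2) and 100%.

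The mRNAs differed among themselves in this split. FLNA had 95.2% and 96.0% of its dyskerin cDNAs in the CDS, MYH9 94.3% and 93.9%, TLN1 92.7% and 96.8%, FN1 96.3% and 90.7%, and COL1A1 93.8% and 90.6%. ACTB had the lowest share, 72.4% and 63.6%, where 13.6% and 20.7% of its cDNAs lay in its short introns and 9.81% and 11.7% in its 5′UTR of 84 nt. In the larger IgG library for dyskerin 96.8% of the 62 ACTB cDNAs were in the CDS (interval 89.0 to 99.1). The intervals of both dyskerin libraries lay lower (69.6 to 75.1 and 61.2 to 65.9). This rests on 1 IgG library and was not tested. Of its exonic ACTB cDNAs, 93.4% were at sites whose next 20 bases occur elsewhere in the genome, against 73.8% and 75.2% in dyskerin. VIM had the highest 3′UTR share in dyskerin, 9.89% and 10.9%, beside 80.8% and 72.9% in the CDS. SPARC, whose 3′UTR of 2475 nt is longer than the rest of its mRNA, had 0 and 4 cDNAs there, against 64 and 94 in a CDS of 912 nt. ACTG1 likewise had none in its 3′UTR of 719 nt in any library, with 265 and 454 cDNAs in a CDS of 1128 nt in dyskerin.

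Against other protein-coding genes this coding bias was at the upper end for most of the 9. Among 1956 other genes with at least 100 cDNAs in each dyskerin library, the median CDS share was 62.1% (quartiles 11.3% and 88.0%) and the median intron share 23.2%. FLNA exceeded 92.8% of those genes in CDS share, TLN1 90.9%, MYH9 89.6%, FN1 87.9% and COL1A1 85.02%, while ACTG1 exceeded 71.8%, VIM 59.3% and ACTB 52.8%. SPARC had fewer than 100 cDNAs in the first library and was not ranked. The ranks are a description over genes, which are not replicates.

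The strongest site of each mRNA, taken as the exonic position called in both dyskerin libraries with the highest mean CPM, was in the coding sequence in all 9. The windows of 30 bases around these sites are shown because they are where the dyskerin signal of each mRNA was densest at a single nucleotide. They are from the GRCh38 reference, on the strand of the mRNA, with the crosslinked base in capitals.
ACTB: atcgtgcgtgacatTaaggagaagctgtgc
ACTG1: ccattgagcatggcAtcgtcaccaactggg
FLNA: ccgtggagttcaccAtcgatgcaaaggacg
MYH9: ccaggcagcctgcaAacaggtgcgtcggac
TLN1: aaaaaggaggaaatAacagggaccttaaga
VIM: aactaccaagacacTattggccgcctgcag
FN1: ataacatcactatcTatgctgtggaagaaa
COL1A1: aagaaaccaccggcGtcgaggtaatctcct
SPARC: tcctggtcaccctgTatgagagggatgagg

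The windows lie at chr7:5528432-5528461 (ACTB, exon 4), chr17:81512028-81512057 (ACTG1, exon 3), chrX:154358231-154358260 (FLNA, exon 28), chr22:36284476-36284505 (MYH9, exon 39) and chr9:35724645-35724674 (TLN1, exon 5), all on the minus strand. Those of FN1 (chr2:215407184-215407213, exon 18), COL1A1 (chr17:50199546-50199575, exon 3) and SPARC (chr5:151667502-151667531, exon 7) are on the minus strand as well, and that of VIM (chr10:17235229-17235258, exon 7) is on the plus strand. The COL1A1 window runs past the end of exon 3 into the intron. The crosslinked base was a uridine in ACTB, VIM, FN1 and SPARC (T in the genomic sequence), an adenosine in ACTG1, FLNA, MYH9 and TLN1, and a guanosine in COL1A1, so these strongest sites share no base.

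The counts at these sites were small. FLNA had the strongest one, codon 1570, with 24 and 33 cDNAs in dyskerin, 0 and 3 in GAR1 and 5 and 0 in the IgG for dyskerin. COL1A1 followed at codon 110, with 22 and 20 cDNAs in dyskerin and none in any other library. The ACTB site, codon 212, had 16 and 14 cDNAs in dyskerin, 0 and 4 in GAR1, and 2 and 1 in the IgG for dyskerin. The remaining strongest sites had 5 to 11 cDNAs in the first dyskerin library and 1 to 15 in the second, down to 5 and 1 in SPARC. Averaged over all sites of an mRNA, a site held between 1.29 (FN1) and 1.94 (ACTB) cDNAs in the first dyskerin library and between 1.27 (SPARC) and 2.17 (ACTB) in the second. A called site thus held few cDNAs on average. These means do not show how widely the sites were spread along an mRNA, which is described below.

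Over the CDS as a whole, called positions were dense in some mRNAs and sparse in others. In either dyskerin library, 564 of the 1128 coding nucleotides of ACTB were called, 34.5% of those of MYH9, 29.5% of ACTG1, 26.2% of VIM, 22.3% of COL1A1, 15.2% of FLNA and 10.96% of SPARC. FN1 (7.06%) and TLN1 (3.04%) were the sparsest. The shares of positions called in both libraries were taken over the whole gene, with UTRs and introns. Of the ACTB positions called in the first dyskerin library 61.7% were also called in the second, and of those in the second 44.8% were called in the first. For MYH9 these shares were 49.4% and 43.8%, for FLNA 42.0% and 37.0%, and for FN1 33.7% and 5.32%. ACTB and FN1 were the extremes of the 9 in the share of the second library.

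The profiles in windows of 50 nt were much alike between the dyskerin replicates. Pearson's r across windows was 0.96 for ACTG1 (39 windows), 0.92 for TLN1 (173) and ACTB (37), 0.90 for FLNA (171) and MYH9 (150), 0.87 for VIM (44) and COL1A1 (119), 0.76 for SPARC (70) and 0.61 for FN1 (168). These are descriptions across windows of 1 mRNA, which share base composition and the placement of reads. The mean position of the exonic cDNAs of all 9, on a scale from 0 at the 5′ end to 1 at the 3′ end, was 0.426 and 0.423 in dyskerin, 0.579 and 0.411 in GAR1, and 0.451 and 0.605 in the IgG for dyskerin. The first GAR1 library and the second of these IgG libraries had only 8 and 7 exonic cDNAs.

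**Figure D4:**
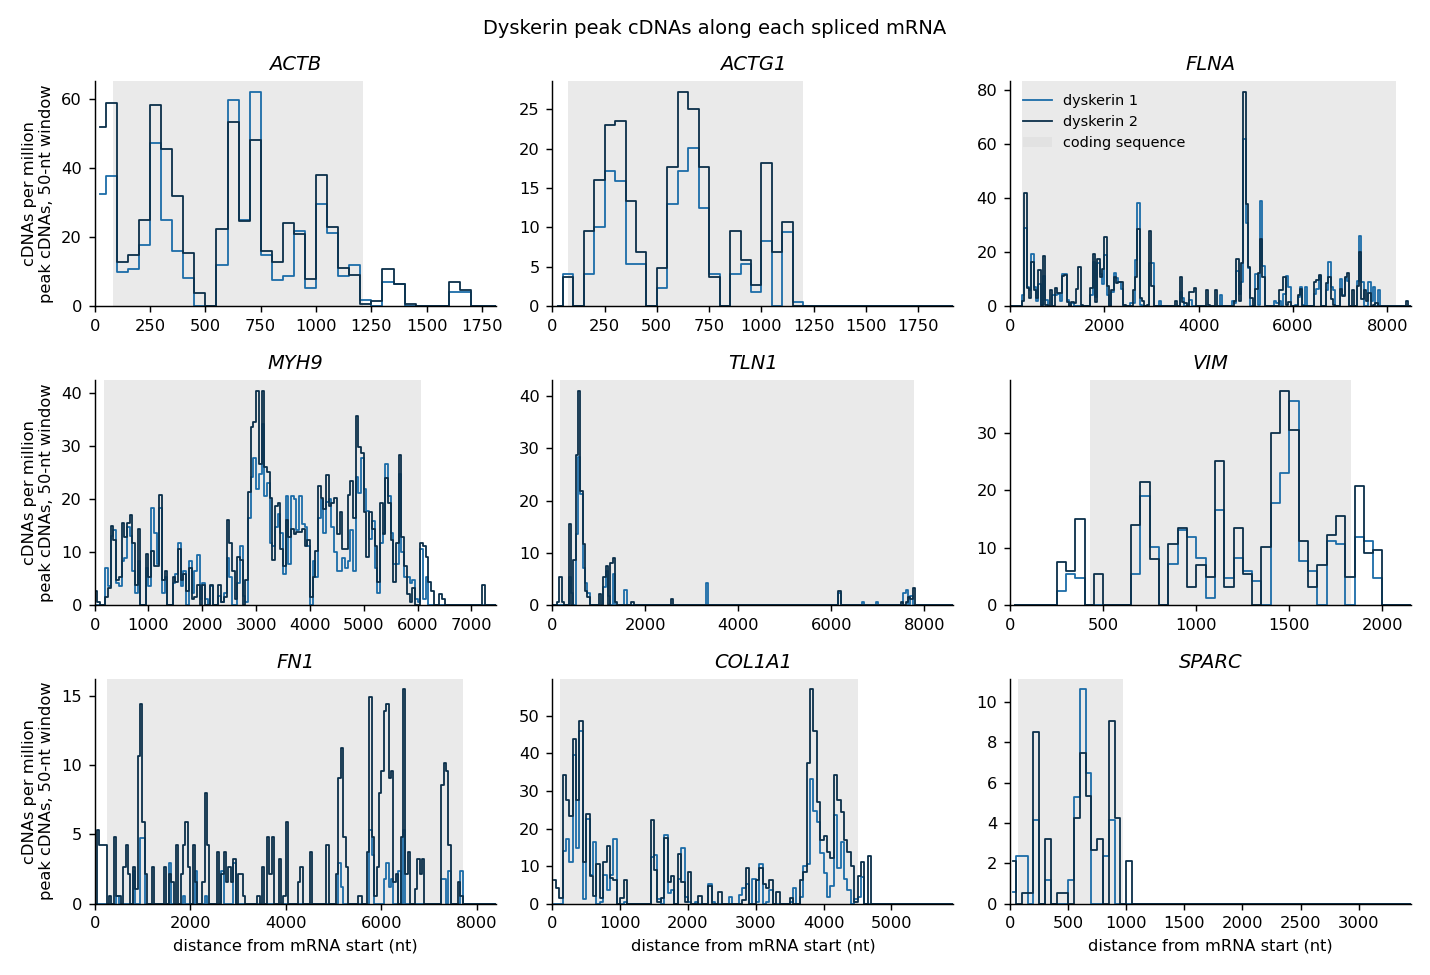
Dyskerin CPM in windows of 50 nt (vertical axes, scaled to each mRNA) along the spliced canonical mRNA (horizontal axes, nt from its start) for the 9 mRNAs with sites, in lighter blue for dyskerin 1 and darker blue for dyskerin 2, with the coding sequence shaded. The lines follow each other least in FN1 (r = 0.61) and SPARC (r = 0.76), and the right-hand part of ACTG1 and SPARC beyond the shading is nearly empty.

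The shapes of the profiles are described in turn. TLN1 had dyskerin cDNAs in the smallest share of its windows. Its exon 5, of 153 nt (chr9:35724572-35724724), took 111 of 203 exonic cDNAs (54.7%) in the first dyskerin library and 177 of 341 (51.9%) in the second, all 17 in the second GAR1 library, and 17 of 28 (60.7%) in the larger IgG library. The same exon thus led in the dyskerin, GAR1 and IgG libraries, and only 20 and 25 of the 173 windows of TLN1 held any dyskerin cDNA.

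FLNA had 1 narrow summit at 4951 to 5000 nt of the mRNA, in exon 28 (chrX:154358199-154358355), which held 105 (7.94%) and 149 (9.20%) of its exonic cDNAs in dyskerin, 4 of 4 and 16 of 110 in GAR1, and 6 of 13 in the larger IgG library. MYH9 was the broadest of the longer mRNAs, with cDNAs in 72.7% and 76.7% of its windows, no window above 2.84% of the total, and at least 28 dyskerin cDNAs per library in each of the 8 windows that start between 2851 and 3201 nt. COL1A1 had a summit at each end of its CDS. Exons 2 (chr17:50199753-50199947) and 48 (chr17:50186640-50186922) held 155 and 158 cDNAs in the first dyskerin library and 251 and 319 in the second, while no dyskerin cDNA lay between 1101 and 1450 nt of the mRNA, within the part that encodes the triple helix.

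The actins were alike in exons 3 and 4 and differed at the 5′ end. Exon 1 of ACTB, all of it 5′UTR, had the highest level per length of any ACTB exon, a mean of 897 CPM per kb in dyskerin with 87 and 166 cDNAs, while exon 1 of ACTG1 had 55.1 CPM per kb with 6 and 7 cDNAs. The window at 51 to 100 nt was the top one of ACTB in the second dyskerin library, with 110 cDNAs. Exon 4 held 36.0% and 30.05% of the exonic ACTB cDNAs in dyskerin and 46.3% and 43.0% of those of ACTG1. Of the ACTG1 coding sites, 55.8% and 61.5% lay at a coding position that was also called in ACTB, against 26.0% and 37.1% of the ACTB sites at a position called in ACTG1. Of the exonic cDNAs of ACTB, 44.6% and 48.6% were at sites whose next 30 bases occur elsewhere in the genome, and of those of ACTG1 52.2% and 42.1%, where the other 7 mRNAs had 0 to 3.92% in dyskerin. With the next 20 bases the shares were 73.8% and 75.2% for ACTB and 71.7% and 67.0% for ACTG1, and up to 8.70% for the others, and reads down to 10 nt were kept. Reads with up to 50 alignments were kept, so the actin values may include reads from the other actin or from pseudogenes. Their part in the likeness of the profiles was not tested. Without ACTB and ACTG1 the CDS share in dyskerin was 92.2%.

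VIM had most of its dyskerin cDNAs in exon 7 (141 and 174) and exon 2 (130 and 189). In SPARC the profile was led by exon 7 with 29 of 69 (42.0%) in the first dyskerin library and by exon 9 with 25 of 102 (24.51%) in the second. FN1 had its top window at 5751 to 5800 nt in the first dyskerin library and at 6451 to 6500 nt in the second, and the window of the first library was also the top one of the second GAR1 library, with 9 of 30 cDNAs. In FN1, 24 windows of 168 held cDNAs in the first dyskerin library and 87 in the second.

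The sites outside dyskerin fell largely on positions that dyskerin also had. Of the 565 sites of the second GAR1 library in these mRNAs, 345 (61.1%, Wilson interval 57.0 to 65.0) were called in a dyskerin library, and of the 275 sites of the larger IgG library for dyskerin 223 (81.1%, 76.0 to 85.3) were. The mRNAs contribute unequally to these pooled shares, since MYH9 gave 141 of the IgG sites and COL1A1 gave 185 of the GAR1 sites. Within MYH9 the shares were equal, 79.5% of GAR1 sites and 79.4% of IgG sites. In TLN1 they were 92.9% of 14 GAR1 sites and 73.9% of 23 IgG sites, in COL1A1 53.0% of 185 and 89.5% of 19. In ACTB they were 62.9% of 151 and 88.9% of 45. For scale, either dyskerin library called 34.5% of the coding nucleotides of MYH9, 3.04% of TLN1, 22.3% of COL1A1 and 50% of ACTB. Where so many positions are called, part of the overlap arises without any preference for a position. The difference between GAR1 and IgG was not tested. The profile of MYH9 in that IgG library correlated with those of dyskerin at r = 0.68 and 0.70, and the GAR1 profile at 0.58 and 0.54. For TLN1 the r of IgG with dyskerin was 0.83 in both. Sites of 1 mRNA are not independent, and whether part of the dyskerin signal in these mRNAs is background was not tested.

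At the crosslinked nucleotide, uridine made up 18.9% (95% Wilson interval 17.6 to 20.2) and 19.96% (18.8 to 21.1) of the coding sites in dyskerin, where uridine was 16.7% and 17.3% of the same coding sequences. In the second GAR1 library it was 22.6% (19.1 to 26.6) against 17.9%, and in the larger IgG library 16.9% (12.8 to 21.8) against 16.3%. FLNA was highest above its sequence in GAR1, with 28 of 82 sites on uridine (34.1%, 24.8 to 44.9) where the CDS has 16.9%, and 23.1% and 23.7% in dyskerin. MYH9 sites, at 14.2% and 14.7% in dyskerin, were at the share of its CDS, 14.2%. Guanosine and cytidine together made up the larger part of the coding sites in all 4 of these libraries. The first base of a codon held 39.7% and 38.6% of the coding sites in dyskerin, 42.3% in GAR1 and 40.8% in the IgG, and the second base 27.3%, 27.8%, 24.5% and 21.7%.

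Clusters of neighbouring sites were taken as the authors deposited them. In dyskerin, MYH9 had 67 and 72 clusters over 4139 and 4006 nt, FLNA 67 and 77 over 2003 and 2236 nt, COL1A1 45 and 43 over 1412 and 1888 nt, and ACTB 16 and 25 over 1492 and 1754 nt, the widest of 342 nt. FN1 had 19 clusters in the first dyskerin library and 83 in the second, the most of any of these mRNAs there. In the second GAR1 library COL1A1 had the most, 39 clusters over 536 nt. In the larger IgG library MYH9 had 34 clusters over 534 nt and no other of the mRNAs had more than 9. No antisense site was called within any of the 10 genes in any library, and no sense site within them was assigned to another gene. The authors called sites by gene, and at most 0.0117% of the cDNAs of a library lay outside genes. Antisense positions without an annotated gene could therefore hardly be called, so their absence says little. Where long genes overlapped, the assignment preferred protein-coding to long non-coding ones.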

How the data were processed

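Per the labels and the study's methods, nuclear iCLIP libraries of U2OS cells were processed by the authors on the iMaps server. They used FastQC 0.11.9, Cutadapt for adapters, whose version is not stated in the material at hand, and STAR 2.7.0e for mapping to GRCh38 (hg38) with up to 50 alignments kept. iCount called significant sites in each library separately. The deposited values are counts of cDNAs per site, which the authors did not normalize, and counts over clusters of sites. A site absent in a library may have failed the call there.

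Sites were assigned by strand to GENCODE 44, with short non-coding RNAs (and 97 RefSeq snoRNAs and scaRNAs added) first, then exons, then introns. Sites were split by the MANE Select transcript, with the stop codon in the CDS. The authors' annotation was an earlier GENCODE release. The test was edgeR 4.0.16 (R 4.3.3, limma 3.58.1) with TMM scaling on genes that reached 10 counts in 2 or more libraries, all 4 groups in 1 fit, and two-sided p-values adjusted over all genes. DESeq2 1.42.0 was an alternative. The factors of TMM were 1.39 (each dyskerin library), 0.375 and 0.0699 (GAR1), 1.11 and 3.82 (IgG for dyskerin) and 1.53 and 3.06 (IgG for GAR1). The edgeR step was tested on simulated data. Shares were compared by an exact permutation test (scipy 1.17.1). Bounds against groups without cDNAs use 3 counts over the group. All 10 genes are named throughout. The 10 genes and the lists of other genes and markers were chosen with earlier results of these data known. Sequences are from the GRCh38 genome.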

Additional observations from a re-analysis of the deposited data

How the results depend on the processing

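The second IgG libraries, with 8183 and 10701 peak cDNAs, held 7 and 0 cDNAs of these mRNAs, which limits the precision of every comparison with IgG. No alternative called any of the 9 mRNAs in dyskerin against its IgG, and the cause of each change below was not tested. Genes called in dyskerin against its IgG numbered 0 in the main fit. They were 7 with scaling to total peak cDNAs, 2 with no filter, 1 with each site counted once and 3 with sites of at least 3 cDNAs. All of these were lower in dyskerin. With at least 50 counts 771 of 3585 genes were called, 763 higher and 8 lower. In GAR1 against its IgG they were 12 with total scaling, 128 by DESeq2, 28 with no filter and 25 with at least 50 counts (0 to 791 without each library in turn, the highest without GAR1 replicate 1). In dyskerin against GAR1, 3339 genes were called, 3057 higher and 282 lower, against 5986 with total scaling (5809 and 177), 472 with no filter (0 and 472) and 1970 with each site counted once (1627 and 343) (60 to 3392 without each library in turn). The libraries that moved this count by over 1.5 times were dyskerin 1 (593 without it), dyskerin 2 (609), GAR1 1 (293, 0 higher) and GAR1 2 (60, 1 higher). For the difference of the antibody effects the counts were 187 with total scaling, 79 by DESeq2, 12 with no filter and 93 with at least 50 counts (0 to 96 without each library in turn, the highest without GAR1 replicate 1). The replicate numbers did not pair the libraries (correlations of same-numbered deviations from -0.09 to 0.12), and with the replicate number as a block 18 genes were called in dyskerin against GAR1, all lower, and 0 in the other 3 comparisons.

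Directions that turned were all below the threshold with TMM. In dyskerin against its IgG, TLN1 had a log2 fold change of -0.51 with each site counted once, and the values without each library in turn ran from -0.63 to 2.72 for ACTB, from -0.61 to 1.34 for TLN1 and from -0.22 to 3.24 for MYH9. ACTB in GAR1 against its IgG was -0.39 when only sites of at least 3 cDNAs were kept. It was 5.05 with TMM, 0.19 with at least 50 counts and 0.25 without dyskerin 1 or without dyskerin 2. In dyskerin against GAR1, ACTB was 3.63 with total scaling, 5.77 by DESeq2, 2.73 with at least 50 counts and 5.54 with sites of at least 3 cDNAs, and COL1A1 was 3.58, 5.73, 2.68 and 5.75 in the same order. Without each library in turn the values ran from -1.49 to 3.94 for ACTB, -1.71 to 1.24 for COL1A1, -0.42 to 5.19 for FLNA, -0.40 to 2.95 for FN1 and -0.13 to 2.62 for TLN1. Of 261 such values over the alternatives, 31 passed an adjusted p of 0.05, all in dyskerin against GAR1. Values for a gene with no cDNA left in a group are not among the 261. In GAR1 against its IgG they thus cover ACTB only and say nothing of the other 8 mRNAs.

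The CDS share in dyskerin was 91.1% with sites of at least 3 cDNAs and 92.2% without ACTB and ACTG1 (86.7% to 89.8% with 1 library). The mean position was 0.430 with each site counted once, 0.418 with sites of at least 3 cDNAs and 0.448 without the actins (0.423 to 0.426 with 1 library). The CDS share of the summed density was 55.9% by the canonical transcript (50.5% to 61.4% with 1 library). It was 47.7% by any protein-coding transcript (42.3% and 53.0% with 1 library), where the region lengths stayed those of the canonical transcripts. The difference in the share of peak cDNAs between antibody and IgG stayed above 0 (0.0642 to 0.246 percentage points without each library) and passed under no alternative.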

Other observations

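ACTB held a second place of crosslinking that dyskerin lacked. Within the ACTB gene, 31.6 kb upstream of the start of its canonical mRNA, sites between chr7:5562235-5562322 held 4 of the 8 ACTB cDNAs in the first GAR1 library and 16 of 200 in the second, against 3 of 16 in the first IgG library for GAR1 and 0 in the second. In both dyskerin libraries, with 1019 and 1566 ACTB cDNAs, and in both of their IgG libraries, none lay there. The place is in an intron of longer annotated ACTB transcripts. It was chosen after its values were seen, it is present in an IgG library as well as with GAR1, and the cause was not tested.

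Among the other cytoskeleton and matrix genes, AHNAK (a large scaffold protein at the membrane) had 5080 and 1327 CPM in dyskerin and 0 and 22.3 CPM in GAR1, against 5740 and 0 CPM in the IgG for dyskerin. MAP1B (a microtubule-associated protein) had 998 and 1208 CPM in dyskerin and 5.12 and 12.1 CPM in GAR1, against 1454 and 122 CPM in the IgG for dyskerin. Of the matrix list, FBN2 (fibrillin 2) led with 576 and 343 CPM in dyskerin and 6.83 and 3.54 CPM in GAR1, against 573 and 0 CPM in the IgG for dyskerin. In each of these 3 the larger IgG library was at or above the lower dyskerin library.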
